A study of Mus musculus with 12 samples.

Results

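Calcitriol was added to olanzapine in cultured mouse hepatocytes, and the RNA of this culture was set against that of a culture given olanzapine alone. Of the 17742 genes listed for hepatocytes, 10963 were compared, namely those with at least 1 TPM, a level scaled to gene length and library total, in any of the 4 hepatocyte libraries. The pair belongs to the 12 libraries of a study that asked how vitamin D affects changes in lipid metabolism caused by olanzapine, an atypical antipsychotic, in hepatocytes, adipocytes and the C2C12 muscle cell line. Each treatment of each cell type had 1 library, so no difference below has a replicate check. The hepatocytes were primary cells of male C57BL6/J mice aged 6 to 8 weeks, released by enzyme perfusion of the liver and purified on Percoll. Both cultures compared received 1 μM olanzapine for 12 h. In the reference culture a 24 h period with vehicle, DMSO, came first, whereas in the other 0.1 μM calcitriol was present in these 24 h and stayed in the medium with olanzapine. The remaining hepatocyte cultures are given beside them. They received vehicle for 36 h, or olanzapine in the same way with 10 μM calcifediol in place of calcitriol so that the vitamin D compounds were not at matched doses. The sources used here do not say whether the 4 cultures came from the same animals.

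Calcitriol (1,25-dihydroxyvitamin D) is the hormone form of vitamin D and binds the vitamin D receptor (VDR), a nuclear receptor that switches on genes such as Cyp24a1, whose enzyme breaks calcitriol down. Calcifediol is its precursor. Hepatocytes make calcifediol for the rest of the body and are known for carrying little VDR themselves. The interferon-stimulated genes, described below, are switched on together when cells sense viral nucleic acid or interferon, by STAT and IRF transcription factors bound to a promoter element with repeated GAAA letters.

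The library with olanzapine alone held 18325297 counts and the one with calcitriol 19348338, against 18793482 with vehicle and 19178616 with calcifediol. The median gene compared had 526 counts with olanzapine and 552 with calcitriol. Levels are given as counts or as CPM, which are counts scaled to the library total, and differences as the log2 ratio of calcitriol co-treatment to olanzapine alone, with 0.5 counts added to each side. Counts without a label follow the order vehicle, olanzapine, calcifediol and calcitriol. The interval after a ratio is an exact Clopper-Pearson 95% interval, which covers counting error only. The median ratio of all genes compared was -0.00 on the log2 scale, the SD over genes was 0.32, and 96.5% of genes lay within 1.5-fold. A gene was called different at a fold change (FC) of at least 2 with a false discovery rate (FDR) of at most 0.05 in the Audic-Claverie test on counts, a test that compares the reads of these libraries and not the treatments. In bulk RNA, fewer cells of a type and less RNA per cell cannot be told apart.

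The 16 hepatocyte markers held 2142347 counts with olanzapine and 2127989 with calcitriol, led by albumin. Of the markers of other liver cells, the 14 of Kupffer cells summed to 7332 and 7905 counts, the 12 of sinusoidal endothelium to 410 and 470, the 8 of stellate cells to 393 and 461, and the 8 of cholangiocytes to 1704 and 1841. The Kupffer cell sum was almost wholly Cd68, and Timd4 was at 0 in both libraries. The lymphocyte and neutrophil markers summed to 2 and 3 counts, and the erythroid markers to 928 and 1114. The 10 muscle markers summed to 100 and 90 counts, with Myog, Myod1 and Ckm at 0 with calcitriol. The preadipocyte and fibroblast markers stood apart, with 61 counts with olanzapine and 727 with calcitriol, and so did part of the adipocyte list, as described next.

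The calcitriol library held reads of genes typical of the adipocyte cultures. Col3a1, a fibrillar collagen chain, had 6 counts with vehicle, 10 with olanzapine, 5 with calcifediol and 253 with calcitriol. In the same order, Adipoq, the adipocyte hormone adiponectin, had 0, 0, 5 and 33 counts, and Plin1, which coats the lipid droplets of adipocytes, had 1, 1, 2 and 39. Retn, the adipocyte hormone resistin, had 1, 0, 3 and 33. In all these genes only the calcitriol library was high. From the genes compared, 14 were chosen after the data were seen. They had at least 500 CPM in adipocytes and under 1 CPM in the olanzapine hepatocyte library. A gene could pass the filter of 1 TPM through the calcitriol library alone, so the set is partly selected on that library. Col6a3 and Dlk1 met both levels but not the filter, with 5 and 1 counts with olanzapine and 41 and 15 with calcitriol. The summed counts of the 14 were 115 with vehicle, 85 with olanzapine, 119 with calcifediol and 1065 with calcitriol. The level of each gene in the calcitriol library was 0.0823% to 0.284% of its level in adipocytes, with a median of 0.124%, and the medians in the other libraries were 0.00687% with vehicle, 0.00838% with olanzapine and 0.0115% with calcifediol.

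Genes whose mean CPM in the 4 adipocyte libraries was at least 10 times that in the olanzapine hepatocyte library were therefore kept apart, 262 of the 10963. Their summed excess with calcitriol was 0.0924% of their summed level in adipocytes, and the counts that this share gives are set beside the counts found. The same sum gave -0.0716% in the vehicle library and -0.0253% in the calcifediol library, so libraries without these reads also differed from olanzapine over the 262 genes. For Col3a1 the share gives 172 counts and for Col1a1, which had 191 with calcitriol against 6 with olanzapine, it gives 172. It gives 35.2 counts for Adipoq, 33.3 for Retn, and 103 for Lpl, a lipase that frees fatty acids from lipoproteins, which had 87 counts with olanzapine and 186 with calcitriol. The genes with the largest excess counts were ones that hepatocytes also express, and there the share gives only a portion. Aldoa, a glycolytic enzyme, had 14460 counts with vehicle, 12902 with olanzapine, 15154 with calcifediol and 15239 with calcitriol, of which the share gives 158, and its calcitriol level was between those with vehicle and calcifediol. Car3, a carbonic anhydrase, had 460, 431, 526 and 718 counts, and the share gives 208. Me1 and Fasn, enzymes that feed and carry out fatty acid synthesis, had log2 ratios of 0.13 and 0.09, with 76.6 and 333 counts from the share. The share is a description of this library, and what brought these reads into it was not tested.

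**Figure D1:**
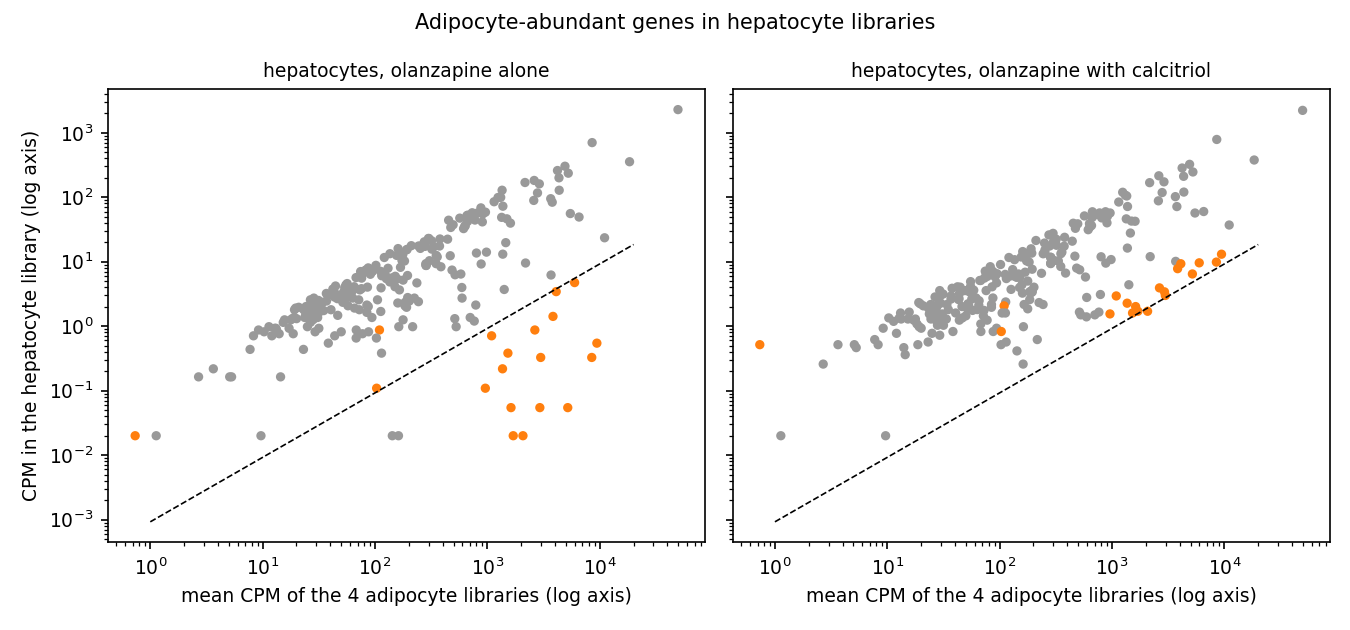
Each point is 1 of the 262 adipocyte-abundant genes, with its mean CPM in adipocytes on the x axis and its CPM in the hepatocyte library with olanzapine alone (left) or with calcitriol (right) on the y axis, both on log axes. Genes with no counts are drawn at the lowest plotted level, the dashed line is 0.0924% of the adipocyte level, and orange marks the 19 genes called higher. With calcitriol the points that lie far below the line on the left sit near or above it.

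In all, 28 genes were called higher with calcitriol, 0.255% of those compared, and 49 were called lower, 0.447%. Of the 28 called higher, 19 were adipocyte-abundant, and these include the collagen genes Col1a1, Col1a2, Col3a1, Col6a1 and Col6a2. Of the 49 called lower 1 was, Ndufa4l2, a mitochondrial protein gene induced by hypoxia, with 26, 73, 55 and 27 counts. When the share was subtracted instead, 9 of the 19 stayed called at 0.0924% and 2 at 0.124%. Both shares were taken from sets that hold called genes, and the 14 genes behind 0.124% were nearly all among the 19. These numbers are therefore no independent check. The expression filter also favours a call higher among adipocyte-abundant genes, since a gene could pass it through the calcitriol library alone. Those low in all 4 libraries were not compared. The genes left were 9 called higher and 48 called lower. Many calls rest on few reads, as 34 of the 77 had under 50 counts in both libraries. A call requires the olanzapine and calcitriol libraries to lie far apart, so each tends to be extreme among the 4 by selection. The olanzapine library was the highest of 4 in 41 of the 48 genes called lower, against 25.6% of all genes compared. It was the lowest of 4 in 9 of the 9 called higher. The calcitriol library was the lowest of 4 in 40 of the 48, against 23.0%, and the highest in 6 of the 9, against 24.1%. By CPM with no counts added, it lay below all other libraries by at least 2-fold in 9 of the 48, and above them by that margin in 0 of the 9. Against vehicle, where 0.237% of genes were called higher and 0.301% lower, 7 of the 48 and 1 of the 9 were called in the same direction.

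**Figure D2:**
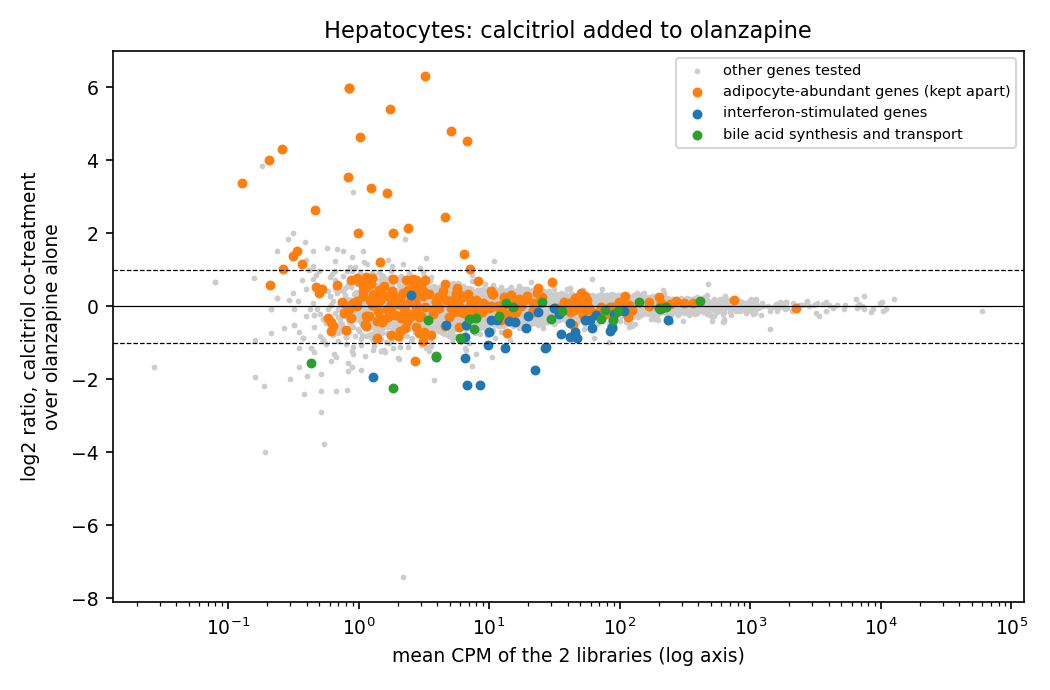
Each point is 1 of the 10963 genes compared, with the mean CPM of the pair of libraries on a log x axis and the log2 ratio of calcitriol co-treatment to olanzapine alone on the y axis, where dashed lines mark 2-fold. The interferon-stimulated genes (blue) lie below 0 in 39 of 40 cases, and the highest ratios belong to adipocyte-abundant genes (orange).

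The best known vitamin D genes were near the detection floor in these cells. Cyp24a1 (chr2:170482957-170497145) had 0 counts with vehicle, 0 with olanzapine, 4 with calcifediol and 4 with calcitriol, too few to pass the expression filter, and a count of 0 allows up to 3 counts, or 0.164 CPM, in the olanzapine library. The share of adipocyte reads would give 0.65 of these 4 counts. The same gene had 2, 0, 661 and 579 counts in adipocytes and 1, 0, 6193 and 9096 in C2C12 cells. Vdr, the receptor, had 1, 2, 2 and 1 counts in hepatocytes, 25, 20, 28 and 33 in adipocytes, and 2034, 1939, 8411 and 9240 in C2C12 cells. S100g, a calcium-binding protein known as a VDR target in the intestine, had 10, 13, 26 and 22 counts, a log2 ratio of 0.66 (-0.37 to 1.79). Insig2 holds back the maturation of sterol-regulated transcription factors, and the study cites a vitamin D response element found in the mouse Insig2 promoter. It had 2691, 2532, 2759 and 2426 counts, a log2 ratio of -0.14 (-0.22 to -0.06), and the calcitriol library was the lowest of 4. In C2C12 cells it had 649, 658, 1471 and 1105 counts, a ratio of 0.74 (0.60 to 0.88). In adipocytes the ratio was 0.05 (-0.10 to 0.20). In hepatocytes Cyp3a11, a drug-metabolising enzyme, was high only with calcifediol, at 9290 counts against 6673 with vehicle, 7098 with olanzapine and 6603 with calcitriol. Of the 28 vitamin D genes listed, 14 passed the filter, 0 were called in either direction, and their median log2 ratio was -0.05. The carrier of vitamin D metabolites in blood, Gc, had 140498 counts with olanzapine and 140858 with calcitriol, a ratio of -0.07 (-0.09 to -0.06).

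Most interferon-stimulated genes had lower levels with calcitriol than with olanzapine alone. Of 46 listed, 40 passed the filter, and 39 of the 40 had a ratio below 0, against 50.1% of all genes compared. Of the 40, 10 were called lower and 0 higher, against 0.447% and 0.255% of all genes. Their median log2 ratio was -0.60, against -0.00 for all genes compared. With calcifediol in place of calcitriol the median of the same genes was -0.53, against -0.01 for all genes. The members were chosen with earlier results of these data known. The starts of 4 of the called genes are printed to show where the promoter element by which this group is known was found at Isg15, Oas3 and Gbp3, beside Oasl2, which lacks it in this window. Each is the RefSeq sequence on GRCm38.p6 from 250 bases before to 50 bases after the start used for that window. It is written 5′ to 3′ on the strand of the gene. At Gbp3 and Oasl2 this start lies inside the gene coordinates given below and not at their first base. Capitals mark every match on either strand to the letters GAAA, any 2 bases and GAAA again, and overlapping matches run together.

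Isg15 at chr4:156200769-156201068, minus strand: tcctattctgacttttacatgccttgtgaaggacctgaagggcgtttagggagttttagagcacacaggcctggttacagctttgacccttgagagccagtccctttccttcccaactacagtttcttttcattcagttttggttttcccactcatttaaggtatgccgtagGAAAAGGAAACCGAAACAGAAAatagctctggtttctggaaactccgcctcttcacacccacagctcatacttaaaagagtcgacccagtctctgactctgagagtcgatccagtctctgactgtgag
Oas3 at chr5:120777610-120777909, minus strand: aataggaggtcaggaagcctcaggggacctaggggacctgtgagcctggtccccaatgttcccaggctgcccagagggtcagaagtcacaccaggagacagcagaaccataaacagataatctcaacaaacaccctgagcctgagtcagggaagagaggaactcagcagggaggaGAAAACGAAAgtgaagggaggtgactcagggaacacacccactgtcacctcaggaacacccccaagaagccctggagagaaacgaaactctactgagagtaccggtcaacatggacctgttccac
Gbp3 at chr3:142559794-142560093, plus strand: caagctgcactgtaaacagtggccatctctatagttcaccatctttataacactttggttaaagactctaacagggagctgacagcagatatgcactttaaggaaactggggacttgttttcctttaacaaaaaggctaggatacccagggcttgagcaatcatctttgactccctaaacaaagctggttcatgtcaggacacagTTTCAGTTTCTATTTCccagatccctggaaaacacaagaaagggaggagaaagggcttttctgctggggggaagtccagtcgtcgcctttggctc
Oasl2 at chr5:114896684-114896983, plus strand: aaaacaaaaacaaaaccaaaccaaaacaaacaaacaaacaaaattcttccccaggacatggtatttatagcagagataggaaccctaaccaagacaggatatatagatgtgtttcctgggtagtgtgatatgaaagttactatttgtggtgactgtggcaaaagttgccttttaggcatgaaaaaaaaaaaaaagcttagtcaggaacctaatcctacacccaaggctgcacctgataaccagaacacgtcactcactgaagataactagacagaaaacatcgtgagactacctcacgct

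The letters were found 3 times at Isg15, from 78 bases before the start, once at Oas3, 75 bases before it, 2 times at Gbp3, from 45 bases before it, and 0 times at Oasl2. A match was present in 3.44% of the 32851 such windows listed, and of the 8868 genes compared that have a window 3.51% do. Among the 34 interferon-stimulated genes with a window, 19 or 55.9% had a match. Those 19 had a median log2 ratio of -0.60 and the 15 without a match -0.39. Of the 10 called genes 8 had a window and 5 a match. A match describes the letters and does not show a binding site.

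Isg15 (chr4:156199424-156200818), a ubiquitin-like protein that is attached to other proteins in the antiviral response, had 382 counts with vehicle, 633 with olanzapine, 230 with calcifediol and 197 with calcitriol. It was thus high with olanzapine and lowest with calcitriol, 3.39-fold below olanzapine alone, with a log2 ratio of -1.76 (-2.00 to -1.53). Oasl2 (chr5:114896926-114912245), of the 2′-5′-oligoadenylate synthetase-like family that responds to double-stranded RNA, had 123, 205, 55 and 48 counts and a ratio of -2.16 (-2.66 to -1.71). Both vitamin D libraries were below vehicle in this gene, and it was the only listed member also called lower against vehicle. Ifi44 (chr3:151730922-151749910), an interferon-induced protein of the cytoplasm, had 104, 253, 44 and 60 counts, a ratio of -2.15 (-2.59 to -1.74). Gbp3 (chr3:142560016-142573213), a guanylate-binding GTPase that acts on intracellular pathogens, had 115, 175, 66 and 69 counts and a ratio of -1.41 (-1.84 to -1.01).

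The other called members had smaller ratios or fewer reads, and all were highest with olanzapine. Oas3, which makes the 2′-5′-oligoadenylates that activate RNase L, had 76, 105, 51 and 42 counts, a ratio of -1.39 (-1.95 to -0.87). Zbp1, a sensor of Z-form nucleic acid, had 214, 336, 147 and 161 counts, a ratio of -1.14 (-1.42 to -0.86). Dhx58, the RIG-I-like helicase LGP2, had 496, 673, 376 and 323 counts, a ratio of -1.14 (-1.33 to -0.94). In these 3 genes, as at Isg15, vehicle lay below olanzapine and both vitamin D libraries lay below vehicle. Xaf1, a pro-apoptotic interferon target, had 168, 242, 163 and 122 counts, a ratio of -1.06 (-1.39 to -0.75). Ifit3, of a family that binds viral RNA, had 417, 689, 442 and 338 counts, a ratio of -1.10 (-1.30 to -0.92), and Oas1g had 21, 38, 16 and 10. Ifit3 and Oas1g have close copies among which reads can be divided. Ifit3b, the copy of Ifit3, had 84, 155, 95 and 91 counts, a ratio of -0.84, and Oas1a had 117, 144, 80 and 107, a ratio of -0.51.

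**Figure D3:**
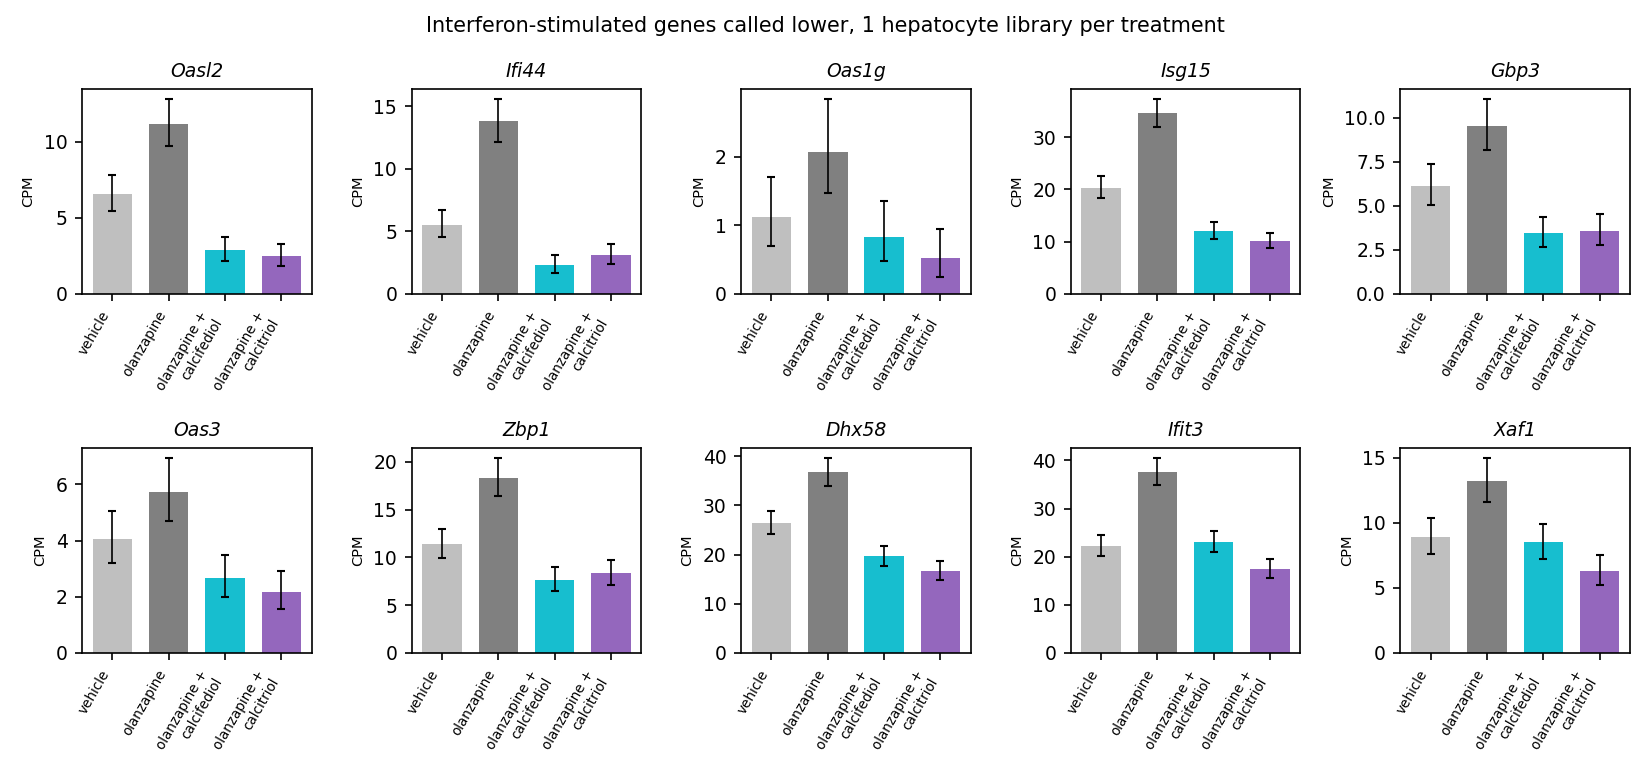
Bars give the CPM of the 10 interferon-stimulated genes called lower, in the 4 hepatocyte libraries, with exact 95% Poisson intervals that cover counting error only. In each panel the olanzapine bar is the highest, for example 34.5 CPM against 10.2 CPM with calcitriol for Isg15.

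Irf7, Stat2 and Irf9, regulators of the response, were not called. Irf7, the factor that amplifies interferon production, had 1633, 1931, 1185 and 1360 counts, a log2 ratio of -0.58 (-0.69 to -0.48). Stat2 and Irf9, which carry the interferon signal to the promoter, had ratios of -0.12 (-0.21 to -0.03) and -0.21 (-0.37 to -0.05). Among members not called, Isg20 and Oasl1 had ratios of -0.89 and -0.87, the feedback protease Usp18 -0.86 and the antiviral Rsad2 -0.77. The peptide transporter Tap1 had a ratio of -0.46, and the immunoproteasome subunits Psmb9 and Psmb8 had ratios of -0.38 and -0.05, the last with an interval of -0.22 to 0.11. Cxcl9, a chemokine, was the member above 0, with 63, 41, 59 and 54 counts, a ratio of 0.31 (-0.29 to 0.94).

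Where the 4 libraries stood in this group shows how much of it rests on the olanzapine library. Olanzapine was the highest of 4 in 34 of the 40 genes, or 85.0%, against 25.6% of all genes compared. Calcitriol was the lowest of 4 in 27, or 67.5%, against 23.0%. The median log2 ratio of olanzapine to vehicle was 0.34, and that of calcitriol to vehicle was -0.28, with 38 of 40 genes below 0. With vehicle as the reference 1 member was thus called lower in place of 10. The markers of Kupffer cells summed to 400 CPM with olanzapine and 409 CPM with calcitriol, and those of lymphocytes and neutrophils to 0.109 CPM and 0.155 CPM. The Kupffer cell sum was almost wholly Cd68, and whether cell content plays a part was not tested.

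Further genes of innate immunity were called lower outside the list. Ccl5, a chemokine that draws T cells, had 20, 30, 17 and 9 counts, a log2 ratio of -1.76 (-3.08 to -0.70). It was the 1 call among the 26 genes of cytokines, chemokines and NF-kappaB feedback that passed, where 0.447% of all genes compared were called lower. The others did not follow it, as the median of these 26 was 0.01, with 14 above 0 and 12 below. Trim30a, an interferon-induced ubiquitin ligase, had 179, 207, 108 and 88 counts, a ratio of -1.31 (-1.69 to -0.95), and was also called against vehicle. Tgtp1, an interferon-induced GTPase, had 119, 207, 113 and 70, a ratio of -1.64 (-2.05 to -1.24). Ddx60, a helicase of the RNA-sensing pathway, had 56, 83, 40 and 39. The calcitriol library was the lowest of 4 in each of these. Tgtp1 and Trim30a also have close copies.

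The same genes were set side by side in the other cell types, each with 1 library per treatment, and the difference between cell types was not tested. Among interferon-stimulated genes reaching 20 counts in any library of the cell type, the median log2 ratio of calcitriol co-treatment to olanzapine alone was 0.03 over 40 genes in adipocytes, with 18 below 0. It was -0.49 over 28 genes in C2C12 cells, with 24 below 0. Isg15 had 428, 164, 284 and 171 counts in adipocytes, where it was highest with vehicle, and 38, 33, 42 and 32 in C2C12 cells. Oasl2 had 844, 461, 487 and 440 counts in adipocytes. In C2C12 cells it had 113, 127, 27 and 8, so both vitamin D libraries were below both others, as in hepatocytes.

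Bile acid genes leaned lower. Of the 27 listed, 24 passed the filter and 2 were called lower, against 0.447% of all genes compared. A ratio below 0 was found in 20 of the 24, against 50.1%. The median log2 ratio of the 24 was -0.20, and with calcifediol in place of calcitriol it was -0.21. Cyp8b1 (chr9:121914356-121916305), the sterol 12-hydroxylase that sets the share of cholic acid among bile acids, had 37 counts with vehicle, 56 with olanzapine, 24 with calcifediol and 12 with calcitriol. Its ratio was -2.25 (-3.34 to -1.38), the calcitriol CPM, with no counts added, was below that of all others by at least 2-fold, and it was also called lower against vehicle. Akr1d1 (chr6:37529978-37574921), the steroid 5-beta-reductase of bile acid synthesis, had 63, 104, 34 and 42 counts, a ratio of -1.38 (-1.94 to -0.86). Cyp7a1, the rate-limiting enzyme of bile acid synthesis, had 87, 171, 63 and 116 counts, a ratio of -0.64 (-0.99 to -0.29), and was above vehicle. Slco1b2, which takes up bile acids and drugs from blood, had 119, 142, 73 and 81 counts, a ratio of -0.88 (-1.30 to -0.48).

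The more abundant members of the bile acid list had smaller ratios. The conjugating enzyme Baat, the canalicular export pump Abcb11 and the phospholipid exporter Abcb4 had ratios of -0.38, -0.36 and -0.34, and Nr1h4, the bile acid receptor FXR, had -0.12 (-0.22 to -0.03). On the other side were Abcc3, a basolateral exporter, at 0.14 (0.10 to 0.19) and Slc27a5, a bile acid CoA ligase, at 0.11 (0.03 to 0.19). Olanzapine was the highest of 4 in 14 of the 24 genes, or 58.3%, against 25.6% of all genes compared. With vehicle as the reference the median was -0.01. The low side of this list therefore holds against olanzapine alone and not against vehicle.

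Cholesterol synthesis, the process the study centred on, differed little. All 20 listed enzymes passed the filter and 0 were called. Their median log2 ratio was -0.08 with 18 of 20 below 0, where 50.1% of all genes compared were. Against vehicle the median was -0.01 with 12 below 0. The members furthest from 0 were Idi1, an isopentenyl diphosphate isomerase, with 1207, 1174, 1261 and 1044 counts, a ratio of -0.25 (-0.37 to -0.13), and Hmgcs1, which makes the HMG-CoA of the pathway, with 5943, 6708, 6496 and 6052, a ratio of -0.23 (-0.28 to -0.18). Msmo1, a sterol demethylase, and Fdft1, which makes squalene, had ratios of -0.20 and -0.16. Among genes of sterol sensing and traffic, Insig1, which retains the sterol sensor in the endoplasmic reticulum, had 2442, 2355, 2325 and 2023 counts, a ratio of -0.30 (-0.38 to -0.21). It is itself among the adipocyte-abundant genes. The sterol exporters Abcg5 and Abcg8, which work as a pair, had ratios of 0.28 (0.02 to 0.54) and -0.28 (-0.60 to 0.03). The 22 genes of this list that passed had a median of -0.01 and 0 calls.

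Of 40 cytochrome P450s and their regulators that passed, 1 was called higher and 0 lower, with a median of -0.01. Over all genes compared, 0.255% were called higher and 0.447% lower. Cyp1a1 (chr9:57687928-57703824), the enzyme induced through the aryl hydrocarbon receptor, had 38 counts with vehicle, 35 with olanzapine, 70 with calcifediol and 77 with calcitriol. Here both vitamin D libraries were above both others, and the ratio was 1.05 (0.46 to 1.68). Cyp3a25 had 103, 147, 202 and 101 counts, a ratio of -0.62, and Cyp2c38 had 174, 201, 138 and 146, a ratio of -0.54 (-0.86 to -0.22). Cyp2f2, a P450 of periportal hepatocytes, had 4310, 3546, 3950 and 4768 counts, a ratio of 0.35 (0.29 to 0.41).

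Fgf21 (chr7:45613890-45615490), a liver hormone of fasting and amino acid stress, was called lower. It had 41, 55, 21 and 21 counts, a log2 ratio of -1.45 (-2.27 to -0.72), and the vitamin D libraries were equal in counts. The other members of the lists that hold Fgf21 did not follow it. Of 37 genes of fatty acid oxidation and PPARA targets, 1 was called, Fgf21 itself, and the median was -0.03. Of 31 genes of the ATF4 response 1 was called, again Fgf21, with a median of -0.04. Among all genes compared 0.447% were called lower.

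**Figure D4:**
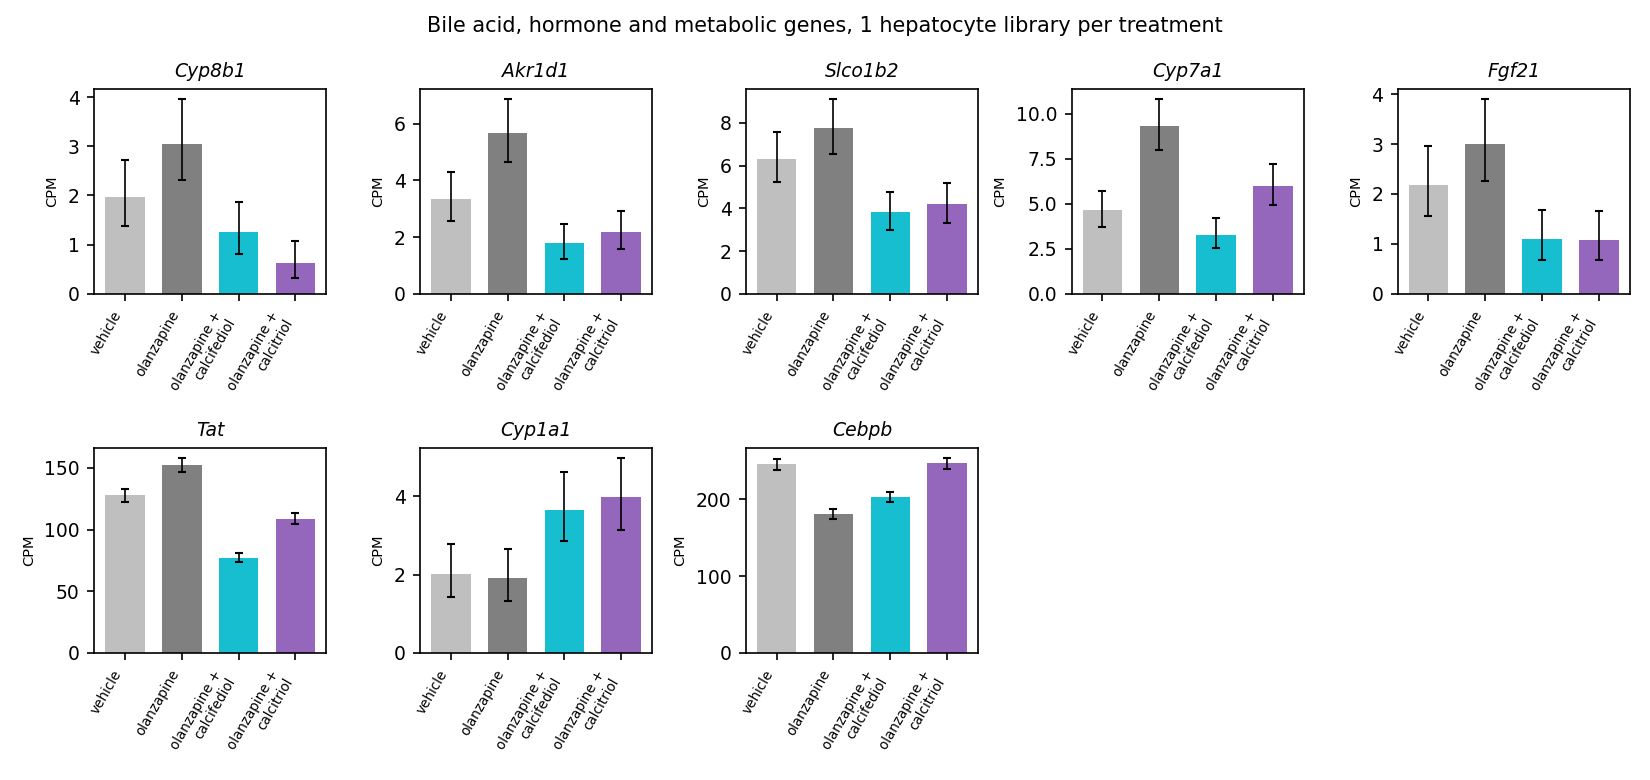
Bars give the CPM of 8 genes of bile acid, hormone and general metabolism in the 4 hepatocyte libraries, with exact 95% Poisson intervals that cover counting error only. Cyp8b1 is lowest with calcitriol, Cyp1a1 is higher in both vitamin D libraries, and Cebpb is lowest with olanzapine.

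Several abundant metabolic genes had lower levels with calcitriol, by less than 2-fold. Tat, a tyrosine aminotransferase induced by glucocorticoids, had 2399, 2791, 1484 and 2109 counts, a log2 ratio of -0.48 (-0.56 to -0.40). Igfbp1, an insulin-repressed binding protein, had 1959, 1781, 1381 and 1391, a ratio of -0.43 (-0.54 to -0.33). The urea cycle genes Cps1 and Arg1 had ratios of -0.42 and -0.39, and Arg1 with calcitriol was level with vehicle at 4061 against 3942 counts. Tat and Cps1 were highest with olanzapine and lowest with calcifediol. Over the 32 genes of glucose handling that passed, 0 were called and the median was -0.05. Crp, C-reactive protein, was the furthest below 0 of the acute-phase proteins with at least 50 counts, with 2091, 2343, 1789 and 1837 counts, a ratio of -0.43 (-0.52 to -0.34). The 31 acute-phase genes that passed had a median of -0.08 and 0 calls.

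The largest shifts in CPM came from the most abundant RNAs and were small as ratios. Alb, albumin, had 62343 CPM with olanzapine and 57273 CPM with calcitriol, against 59655 CPM with vehicle, a ratio of -0.12 (-0.13 to -0.12). Krt8 and Krt18, the paired keratins of hepatocytes, had ratios of 0.27 (0.26 to 0.29) and 0.20 (0.19 to 0.22). Krt8 had 133241, 122976, 154253 and 157047 counts, so both vitamin D libraries were above both others. Mup2, a major urinary protein, had 23424, 6921, 10675 and 11112 counts, but its near-identical copies make the division of reads among them uncertain.

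Besides Cyp1a1, the genes called higher that were not adipocyte-abundant include Melk, a mitotic kinase, with 19, 10, 20 and 31 counts, Ptpre, a protein tyrosine phosphatase, with 25, 18, 33 and 46, and Zfp101, a zinc finger gene, with 48, 21, 47 and 48. They also include 9030025P20Rik, with 39, 34, 58 and 91 counts, which was the 1 gene also called against vehicle. The rest are LOC108167857 and Serpinb9b, Rsc1a1 and Gm14296, which can share reads with copies or overlapping genes. LOC108167857, the 1 gene of this direction that the rule for named genes takes from the calls, had 28, 3, 12 and 32 counts. In Zfp101 and LOC108167857 the olanzapine library was low and calcitriol was near vehicle. Except for those that the rule takes, the genes of this paragraph were named after their values were seen.

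Cebpb, a transcription factor of the liver and of stress responses, had 4617, 3309, 3882 and 4771 counts, a log2 ratio of 0.45 (0.39 to 0.51) that left it level with vehicle. Nr1d1, the clock repressor REV-ERB alpha, had 237, 159, 146 and 233, a ratio of 0.47 (0.18 to 0.77), also level with vehicle. Csf1, a macrophage growth factor, had 1377, 1129, 1513 and 1659, a ratio of 0.48 (0.37 to 0.59), and Lamb3, a laminin chain, had 81, 48, 81 and 89, a ratio of 0.81 (0.29 to 1.35). In each of these genes the olanzapine library was below vehicle and the calcitriol library was near or above it. Tagln, an actin-binding protein of spreading cells, had 161, 103, 175 and 177 counts, a ratio of 0.70 (0.34 to 1.07). The 37 cytoskeleton and dedifferentiation genes had a median of 0.14, and the median was -0.00 against vehicle. Of them 1 was called lower, Myl9, against 0.447% of all genes compared. The 28 immediate early genes had a median of 0.15, with 21 above 0 and 0 called, and -0.09 against vehicle.

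Of 33 genes of DNA replication and mitosis that passed, 24 had a ratio above 0, 0 were called, and the median was 0.06. Bub1b, a spindle checkpoint kinase, had 37, 31, 36 and 62 counts, a ratio of 0.91 (0.28 to 1.59), and the replication helicase subunits Mcm4 and Mcm5 had 0.52 (0.27 to 0.77) and 0.48 (0.25 to 0.70). The calcitriol library was the highest of 4 in 14 of these 33 genes, against 24.1% of all genes compared. The olanzapine library was so in 6, against 25.6%.

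Groups whose medians stood near 0 were the 51 ribosomal protein genes, with -0.05 and 0 calls, the 38 nuclear genes of oxidative phosphorylation, with -0.03 and 0 calls, and the 46 conjugating enzymes, with -0.05 and 0 calls. They still leaned lower, with 38 of the 51, 24 of the 38 and 27 of the 46 below 0, against 50.1% of all genes compared. The calcitriol library was the lowest of 4 in 22, 20 and 17 of them, against 23.0%. Of the 33 lists counted, interferon-stimulated genes had the median furthest from 0, and bile acid genes came next.

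**Figure D5:**
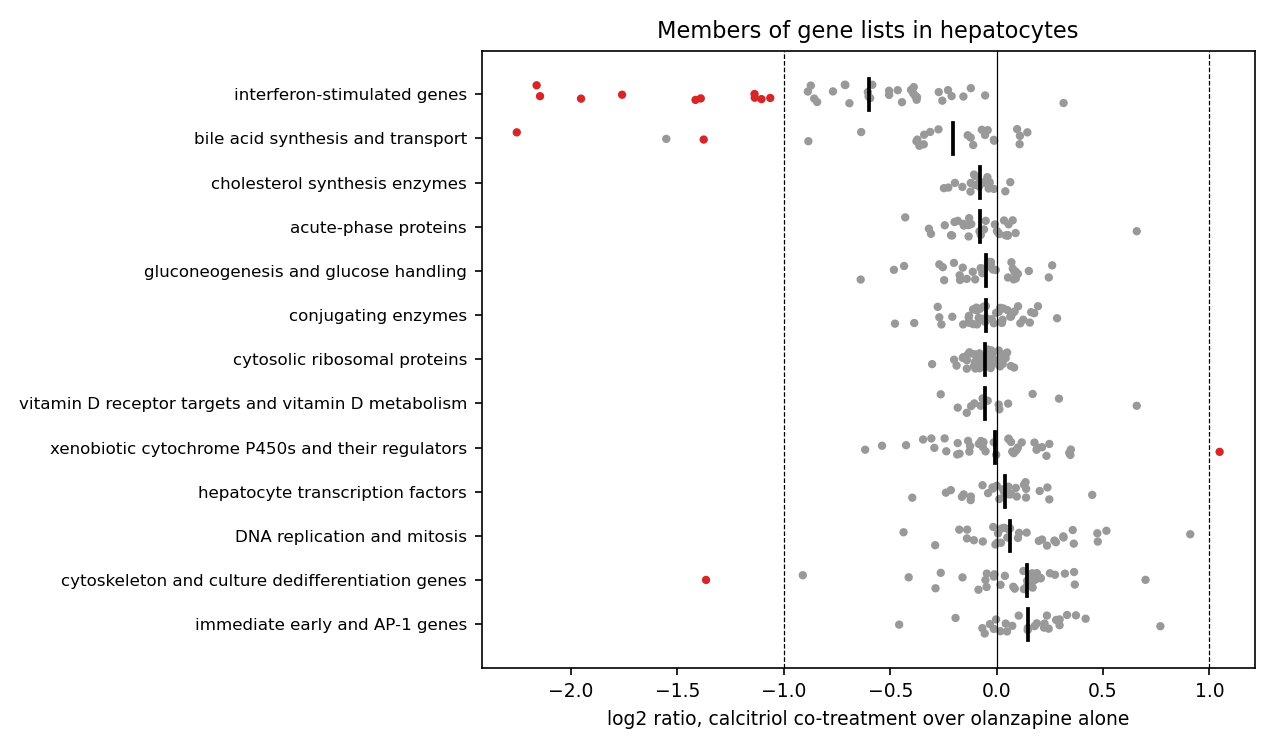
Each point is a gene of 1 of 13 lists that passed the filter, placed by its log2 ratio of calcitriol co-treatment to olanzapine alone, with the vertical bar at the median of the list, dashed lines at 2-fold and called genes in red. The interferon-stimulated genes have a median of -0.60 and 10 red points, and the bile acid genes a median of -0.20 and 2.

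Among genes lower with calcitriol than in every other library, LOC102639653 on chromosome 2 was the most extreme and was singled out after its values were seen. Its counts were 100, 81, 58 and 0 in the order given above, and a count of 0 allows up to 3 counts. Against that floor, with the 81 counts taken as exact, it was at least 28.5-fold lower than with olanzapine alone, and with the counting error of both libraries the log2 ratio was at most -4.50. Its level was under 5 TPM, and predicted genes of this kind can share reads with copies. Krt17, a keratin of stressed epithelium, had 7, 19, 12 and 1 counts, and Tnnt1, a troponin of slow muscle, had 18, 21, 18 and 4. Rundc3a had 20, 25, 19 and 5. With so few reads the intervals were wide, from -4.47 to -0.90 on the log2 scale for Tnnt1. Of genes called lower with more reads, Pbld1 had 97, 169, 79 and 78 counts, a ratio of -1.19 (-1.60 to -0.80), and Bbs5, of the ciliary BBSome, had 53, 90, 60 and 44.

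Gene length did not order the ratios of this comparison. Over 5 equal groups of genes by length the median log2 ratio of calcitriol co-treatment to olanzapine alone lay between -0.01 and 0.00. That of olanzapine to vehicle, in contrast, ran from -0.03 in the shortest genes to 0.06 in the longest. For calcifediol co-treatment against olanzapine alone it ran the other way, from 0.10 in the shortest to -0.10 in the longest.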

How the data were processed

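Poly(A)+ RNA of 12 cultures was sequenced, 1 library for each of 4 treatments in 3 cell types. Reads came from a DNBseq instrument and passed a SOAPnuke filter, after which the authors aligned them by HISAT and Bowtie 2 on GRCm38.p6 and ran RSEM. Strand use in counting is not given in the sources used here. The deposited expected counts are not scaled between libraries, and 5.35% to 5.72% per hepatocyte library were not whole numbers. The deposited FPKM values adjust these counts for the length of each gene and the number of mapped reads. The 12 columns of TPM in the tables were not used, and TPM was recomputed from FPKM.

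Expected counts were rounded and scaled to column totals, with a pseudocount of 0.5. Genes reaching a TPM of 1 in any hepatocyte library were compared in Python 3.11.15 (scipy 1.17.1) with the Audic-Claverie test, two-sided, with Benjamini-Hochberg adjustment over all 10963 genes, the method and thresholds (FC of at least 2, FDR of at most 0.05) that the study's methods name. The code was tested on simulated data. With 1 library per treatment no p-value is printed. Adipocyte-abundant genes had a mean adipocyte CPM at least 10 times that with olanzapine in hepatocytes, with 0.05 CPM added to both. edgeR 4.0.16 and DESeq2 1.42.0 in R 4.3.3 gave alternative scaling factors only. Of the gene numbers, 17629 matched the annotation, and 23 symbols turned into dates were restored.

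The members, the 33 gene lists and the rule for named genes were chosen with earlier results of these data known. The rule takes Cyp24a1, Vdr and Insig2. It adds up to 12 genes per direction called, not adipocyte-abundant, not predicted (Gm or Rik names), with at least 5 TPM and outside the range of the other 3 hepatocyte libraries. It adds the 6 largest changes in CPM per direction, up to 4 members of each list with at least 50 counts, 8 adipocyte-abundant genes by excess count, and the cell markers. Other called genes and list members were named after their values were seen, and some genes that the rule takes are not reported here. Alternatives were other scalings, pseudocounts, filters, thresholds and reference libraries.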

Additional observations from a re-analysis of the deposited data

How the results depend on the processing

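Scaling changed little. Under the 4 other scalings (TMM, median-of-ratios size factors, Rplp0 and FPKM rescaled to TPM) all 604 values of the 151 genes compared kept their direction and their side of the thresholds, and the median of all genes moved by at most 0.02 on the log2 scale. Of 198 list medians, from 33 lists under these scalings and with vehicle or calcifediol as the reference, 180 moved little, 15 moved more and 3 turned in direction.

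The counts of calls depended on the filter and thresholds. Against 77 genes called, 28 higher and 49 lower, there were 124 with no filter, 56 of them higher, and 5 at TPM of at least 10, all 5 lower and 0 higher. FC of at least 1.5 gave 175, with 52 higher and 123 lower, and FDR of at most 0.001 gave 46, with 27 lower. The share called higher was 36.4%, and 0.0% at TPM of at least 10.

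Without adipocyte-abundant genes, against 57 called with 9 higher and 48 lower, TPM of at least 10 left 5, with 0 higher and 5 lower. FC of at least 1.5 gave 147, with 30 higher and 117 lower, and FDR of at most 0.001 gave 30, with 4 higher and 26 lower. No filter gave 16 higher. Subtracting the share of adipocyte reads in place of keeping genes apart gave 18 higher. With vehicle as the reference 29 were lower, and with calcifediol, an alternative chosen after seeing the data, 16 were higher. The share called higher was 15.8%, against 27.5% with vehicle and 28.1% with calcifediol as the reference.

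The median of interferon-stimulated genes was -0.28 with vehicle and -0.10 with calcifediol as the reference, and that of bile acid genes 0.0356 with calcifediol. The median of acute-phase genes turned from -0.08 to 0.0515 with calcifediol as the reference, and that of cytoskeleton genes from 0.14 to -0.000308 with vehicle and -0.11 with calcifediol. The cause was not tested. The reference library alone differs in these settings.

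No paired analysis was possible because each treatment had 1 library and the labels carry no shared replicate numbers, and leaving out a replicate was not possible for the same reason. Depth limits the low genes: a count of 0 allows up to 3 counts, 0.164 CPM with olanzapine and 0.155 CPM with calcitriol. Counting intervals leave out the spread between cultures, which is unknown here.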
